A study of Homo sapiens with 3 samples.

Results

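The peaks described here are the sites called in a DDX6 eCLIP experiment that the authors' annotation places in introns of non-coding genes. A peak was taken when its first annotated region was a non-coding distal intron, proximal intron, 5' splice site or 3' splice site, with no limit on its enrichment. That gave 1889 of 123298 peaks (1.53%) in the list of IP replicate 1 and 650 of 62411 peaks (1.04%) in the list of IP replicate 2. The cells were MOLM-13, a human acute myeloid leukaemia line, with no genotype or treatment that differs between libraries, so the results hold for 1 line. Cells were cross-linked with ultraviolet light, RNA was trimmed with RNase I, and DDX6 was immunoprecipitated (IP) with the Novus antibody NB200-192 in both IP libraries, while the 1 input library has no antibody. The labels do not say whether the 2 replicates are separate cultures, and the p-values below then rest on a spread between libraries that may be technical.

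DDX6 is a DEAD-box RNA helicase that represses translation, promotes removal of the mRNA cap and is needed for P-bodies, cytoplasmic granules that store untranslated RNA. Long non-coding RNA genes are transcribed and spliced much like coding genes, and their introns are removed and mostly degraded in the nucleus. Introns of non-coding genes can also hold microRNAs, small nucleolar RNAs and parts of other transcription units. In an eCLIP experiment the input library shows how much of each RNA was present after the same trimming, and a peak is read as the IP level over that input level.

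IP replicate 1 had 4643494 counted reads, the input 7807540 and IP replicate 2, the shallowest library, 1244213. At least 10 reads were counted for 9, 8 and 9 of 10 myeloid marker genes in the first IP, the second IP and the input, while the T cell, B cell, erythroid and epithelial marker lists summed to between 0 and 35 reads per library. Each peak carries the authors' -log10 p and log2 fold of that IP over the input, and a peak is called past the threshold here when both are at least 3. Both IP libraries were compared with the same input, so the enrichments in the 2 lists are not independent.

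The label of these peaks held only in part. RefSeq lists the host of 673 peaks of IP replicate 1 (35.6%) as a long non-coding RNA, of 211 (11.2%) as a pseudogene and of 522 (27.6%) as a protein-coding gene, and the remaining 483 (25.6%) had another class or no match. In IP replicate 2 the protein-coding hosts took 198 of 650 peaks (30.5%). A protein-coding gene can have non-coding transcripts too, so "non-coding intron" describes the annotated transcript and not always the gene. In addition, 72 identifiers from the long non-coding RNA names label peaks more than 5 Mb apart on 1 chromosome, up to 241.9 Mb, which is longer than any gene. None of the 72 is an Ensembl identifier. At least 1 of them stands among the labels of 725 peaks (38.4%) in IP replicate 1 and 229 (35.2%) in IP replicate 2, but only 13 and 6 peaks carry no other host, and hosts are named below by the other label where there is one. A peak with an Ensembl identifier among its labels is counted under its Ensembl identifiers alone.

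Most of the peaks lay deep in introns. In IP replicate 1, 1584 were distal, 226 proximal, 44 at 5' splice sites and 35 at 3' splice sites, and in IP replicate 2 the counts were 510, 94, 35 and 11. Median width was 55 bases (range 2 to 199) in IP replicate 1 and 39.5 bases (range 2 to 122) in IP replicate 2. Overlapping or touching peaks formed 1814 sites in IP replicate 1 and 527 in IP replicate 2.

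A small share of the intronic peaks passed the threshold, although most had more IP signal than input. The median log2 fold was 1.01 in IP replicate 1, with quartiles of -0.08 and 2.33, and 2.64 in IP replicate 2, with quartiles of 1.42 and 4.23. In IP replicate 1, 474 peaks (25.1%) had less IP signal than input, against 26 (4%) in IP replicate 2. Over all peaks those shares were 6.77% and 2.92%, and over peaks in coding introns 24.6% and 3.81%. Past the threshold were 54 of 1889 peaks (2.86%) in IP replicate 1, where 11.5% of all peaks passed, and 71 of 650 (10.9%) in IP replicate 2, where 12.9% of all peaks passed. Introns of coding genes had smaller shares past the threshold, 1.01% and 3.95%, and peaks in coding sequence larger ones, 14.9% in each list. None of these shares was tested, since each comes from a single list.

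The fold alone separated the lists more than the full threshold did. A log2 fold of at least 3 was reached by 152 peaks (8.05%) in IP replicate 1 and 279 (42.9%) in IP replicate 2. Over all peaks the shares were 15.5% and 29.2%, so non-coding introns lay below all peaks in the first list and above them in the second. Many peaks share 1 pair of values: in IP replicate 1, 286 peaks (15.1%) have a log2 fold of 2.59 and a -log10 p of 0.960, and in IP replicate 2, 112 peaks (17.2%) have 4.23 and 2.02. The peaks of IP replicate 1 hold 294 distinct pairs and those of IP replicate 2 hold 130. IP replicate 2 is also the shallower IP library, and the part of depth in these values was not tested. Among members with a -log10 p of at least 3, those just past the fold limit had log2 folds of 3.01, 3.01 and 3.10 in the first list. In the second list they had 3.08, 3.20 and 3.20. Those just under the fold limit, with the same limit on p, had 2.96, 2.96 and 2.92 in the first list. In the second list these had 2.96, 2.93 and 2.76.

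**Figure D1:**
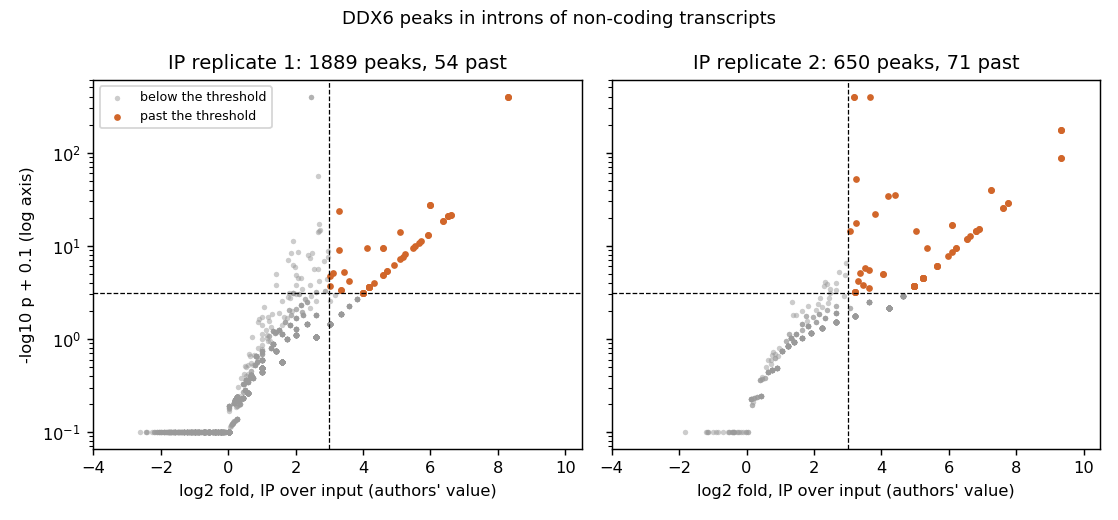
Each point is a peak in an intron of a non-coding gene, with the authors' log2 fold of IP over input on the x axis and -log10 p plus 0.1 on a log y axis, for IP replicate 1 (left) and IP replicate 2 (right). Dashed lines mark the threshold, orange points lie past it (54 of 1889 and 71 of 650), and grey points do not.

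The sites that did pass were short. The peaks past the threshold formed 41 sites in IP replicate 1, with a median width of 27 bases, and 53 in IP replicate 2, with a median of 26 bases. Sites of at most 30 bases made up 26 of the 41 (63.4%) and 35 of the 53 (66.0%). Among all sites in non-coding introns they made up 15.3% and 23.5%. Introns of coding genes showed the same contrast to a lesser degree, with 38.9% and 51.7% of enriched sites at most 30 bases wide against 16.4% and 17.5% of all sites. In coding sequence 24.4% and 19.3% of enriched sites were that short, against 31.2% and 32.7% of all sites.

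**Figure D2:**
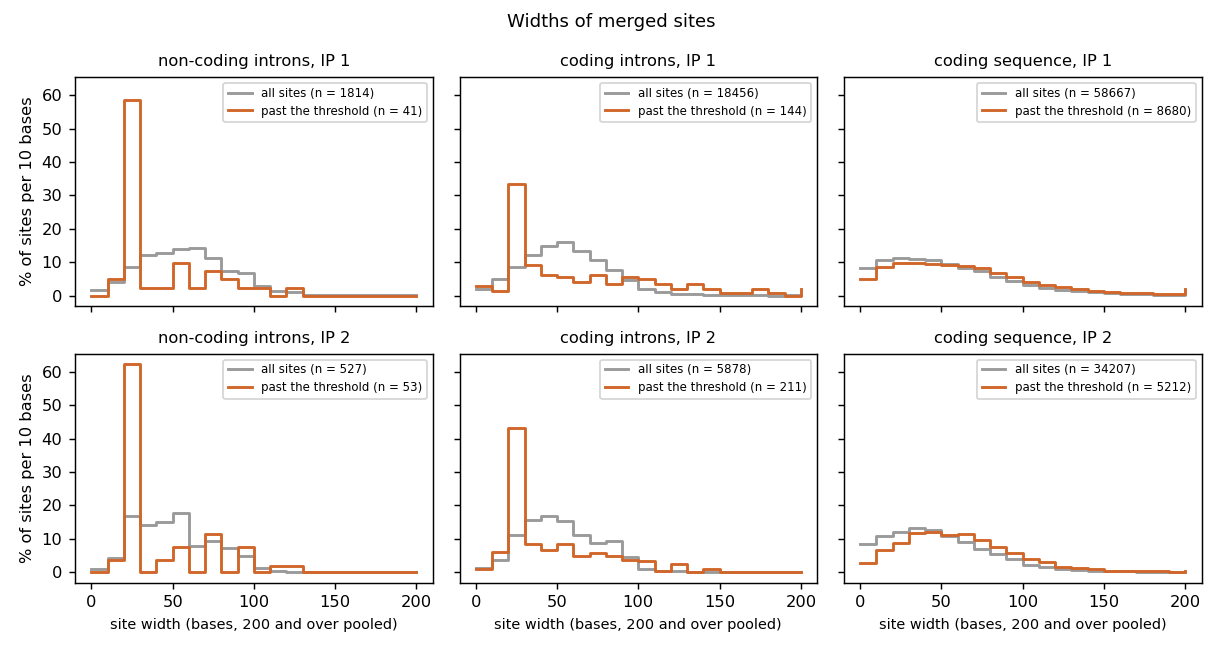
Width of merged sites in bases (x axis) as percent of sites in each 10-base step (y axis), for non-coding introns, coding introns and coding sequence, in IP replicate 1 (top) and IP replicate 2 (bottom). Grey lines are all sites and orange lines are sites past the threshold; in both intron classes the orange line peaks between 20 and 30 bases.

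Few sites were found in both lists when enrichment was ignored, and a larger share when it was required. With no threshold, 121 of 1814 sites of IP replicate 1 (6.67%) overlapped a site of IP replicate 2 on the same strand by at least 1 base, and 122 of 527 sites of IP replicate 2 (23.1%) overlapped the reverse way. Over all peaks of the lists those shares were 25.6% and 50.8%. Past the threshold in both lists were 19 sites, which are 46.3% of the 41 and 35.8% of the 53. The same shares were 39.6% and 27.5% for coding introns and 19.8% and 32.2% for all enriched sites.

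The 19 shared sites were narrow, and their ends lay at nearly the same base in both libraries. Of the 19, 16 were at most 30 bases wide in both lists, the median width was 25 bases and the range 19 to 100. Starts differed by at most 3 bases and ends by at most 3 bases. The start was identical at 8 sites, the end at 7 and both at 5. They were spread over 10 chromosomes, with 17 in distal and 2 in proximal introns. Shared enriched sites in coding introns also had a median width of 25 bases, and those in coding sequence 76.

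The site with the highest fold lay in LINC01643, an intergenic long non-coding RNA, at chr22:34558591-34558619 on the plus strand (hg19), 29 bases with the same ends in both lists. Its log2 fold was 8.29 in IP replicate 1 and 9.34 in IP replicate 2, with -log10 p of 400 (the cap of the deposited values) and 175. The next was at chr12:40188818-40188838 on the plus strand, in C12orf40, which RefSeq lists as protein-coding. Its 21 bases were also identical in both lists, with log2 folds of 6.37 and 9.33. These 2 sites were the only ones of the 19 with a log2 fold above 8 in either library, and C12orf40 differed most between the libraries, by 2.96.

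Most of the other 8 leading sites lay in genes known here only by identifier. ENSG00000254404 held 24 bases at chr11:62019671-62019694 on the minus strand, with log2 folds of 6.59 and 7.60. ENSG00000254573 held 24 bases at chr11:134441679-134441702 on the plus strand, with 6.53 and 7.26. Both sites kept their start base between the libraries. ENSG00000231918 held 23 bases at chr2:52034579-52034601 on the plus strand, with 5.71 and 7.77. ENSG00000233635 held 20 bases at chr17:61354326-61354345 on the minus strand, with 5.92 and 6.81. The site at chr1:24406577-24406601 on the plus strand carried the labels of ENSG00000225315 and of MYOM3-AS1, an RNA antisense to the myomesin gene MYOM3, with log2 folds of 5.65 and 6.81. All were higher in IP replicate 2.

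The last 3 of the 10 were ordered closely by their mean fold. A site in lnc-GNE-1 at chr9:36447460-36447486, in a proximal intron on the minus strand, had log2 folds of 5.99 and 6.10. ENSG00000234378 held 25 bases at chr2:20282773-20282797 on the minus strand, with 5.10 and 6.55. PID1, which RefSeq lists as protein-coding and which encodes an adaptor with a phosphotyrosine interaction domain, held 29 bases at chr2:229777750-229777778 on the minus strand, with 5.53 and 6.10. Coordinates are those of IP replicate 1.

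The remaining 9 sites are described by range, and those named were picked after their values were seen. Over all 19, log2 folds ran from 3.30 to 8.29 (median 5.10) in IP replicate 1 and from 3.08 to 9.34 (median 6.55) in IP replicate 2. IP replicate 2 was higher at 18 of the 19, by a median of 1.05. Over the 123 overlapping pairs of sites with no threshold it was higher at 104, by a median of 1.16, against a median of 0.06 over all classes of peaks. Coding introns had a like difference, with IP replicate 2 higher in 602 of 685 pairs, by a median of 1.22. The exception was the widest site, 100 bases in ENSG00000227242, with 3.30 and 3.08. The site in lnc-OR4F16-8 at chr1:564866-564918 lies in a part of chromosome 1 known to hold a nuclear copy of mitochondrial DNA, and the site in ANKRD30BL lies in a stretch known to resemble ribosomal RNA genes. Reads from near-identical copies cannot be told apart there, so the values of both (4.59 and 6.89, and 4.13 and 5.03) are uncertain.

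**Figure D3:**
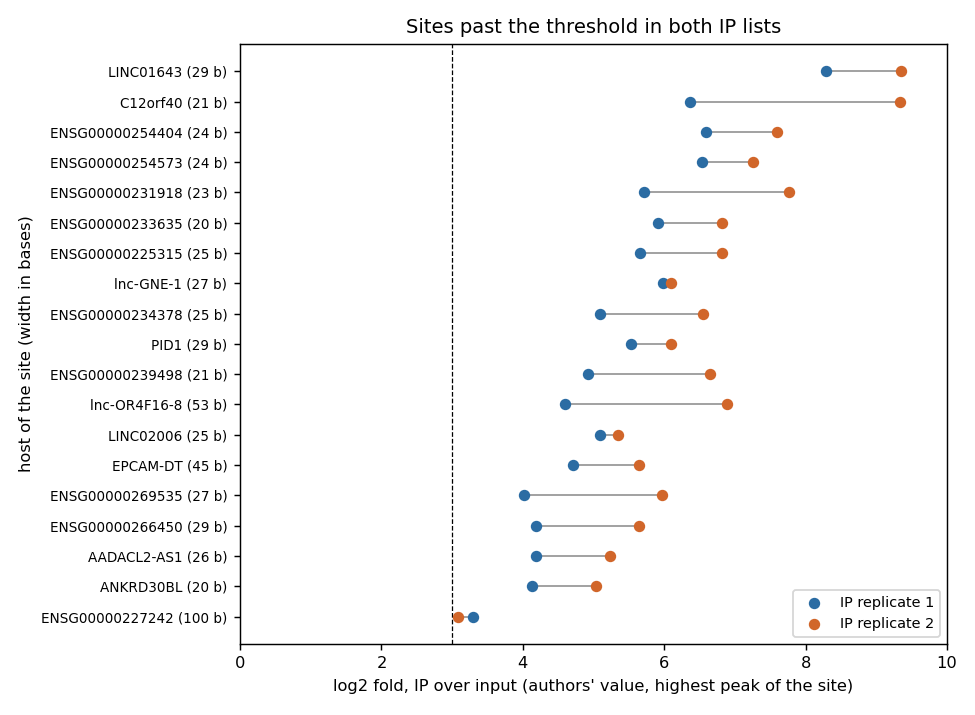
The 19 sites past the threshold in both lists, ordered by mean fold, with the authors' log2 fold of IP over input for the highest peak of each site in IP replicate 1 (blue) and IP replicate 2 (orange), the host at the left and the site's width in IP replicate 1 in bases (b). The dashed line is the limit of 3; the orange point lies to the right of the blue point at 18 of the 19 sites.

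The authors' deposited list of reproducible peaks has 1587 entries, and 21 of them (1.32%) overlapped a peak described here. They fell on 13 sites of IP replicate 1 and 12 of IP replicate 2. Of the 19 shared sites 10 overlapped that list, among them the 8 with the largest mean fold. How the authors combined the replicates is not stated by the labels or files used here. The sites of ENSG00000234378 and PID1, the 9th and 10th, were not in the list.

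Another 22 sites passed in IP replicate 1 only and 34 in IP replicate 2 only. Of the 22, 17 had no peak at that place in IP replicate 2, and the other 5 had one whose fold passed but whose p did not. Of the 34, 14 had no peak in IP replicate 1 and 20 had one below the threshold, with a log2 fold above 0 at 19 and of at least 3 at 4. The highest of each kind, chosen after their values were seen, were ENSG00000269237, with log2 folds of 5.47 and 3.64 in the first and second list, and the pseudogene THEM7P, with 3.82 and 6.55. Being past the threshold in a single list does not show that the libraries differ at that site, and the difference was not tested.

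Strong p-values did not always go with a high fold. LINC00486, chosen after its values were seen, had 3 peaks in IP replicate 1 with log2 folds of 2.46 to 2.66 and 4 in IP replicate 2 with 3.20 to 3.65. One of its sites had a -log10 p at the cap of 400 in both lists. All 4 peaks passed in IP replicate 2 and none in IP replicate 1, though the log2 fold of that site differed by less than 1 (2.46 and 3.20). Its intron reads were 1319 in IP replicate 1, 569 in IP replicate 2 and 392 in the input, many more than in most hosts of the narrow sites.

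Some hosts held many peaks, few of them past the threshold. The peaks of IP replicate 1 fell in 663 hosts and those of IP replicate 2 in 313, with 182 in both lists, and 399 and 167 hosts held a single peak. The 5 hosts with most peaks in IP replicate 1 were PVT1, CCDC26, LRMDA, DLEU2 and MIR3667HG. Together they held 424 peaks (22.4%) in IP replicate 1 and 130 (20.0%) in IP replicate 2, but only 2 and 3 of those past the threshold. With PVT1 and CCDC26 on it, chromosome 8 took 355 peaks (18.8%) of IP replicate 1 and 93 (14.3%) of IP replicate 2, against 5.83% and 5.99% of all peaks.

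PVT1 is a long non-coding RNA gene beside MYC that also hosts microRNAs. It had 137 peaks in IP replicate 1, with a median log2 fold of 0.42, and 27 in IP replicate 2, with a median of 1.64. It was the only gene of the 4 lists described below with peaks past the threshold in both libraries, 2 and 3, but none of these overlapped between the lists. The highest log2 fold of a PVT1 peak was 4.01 in IP replicate 1 and 3.52 in IP replicate 2.

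CCDC26, a long non-coding RNA gene known from myeloid leukaemia, had 109 peaks in IP replicate 1, of which 90 had less IP signal than input, and 29 in IP replicate 2. Its median log2 folds were -0.90 and 0.77, and no peak passed the threshold. DLEU2, the host of miR-15a and miR-16-1, had 52 and 27 peaks with medians of -1.34 and 0.23, the lowest of the 5 hosts. LRMDA, listed by RefSeq as protein-coding, had 75 and 29 peaks with medians of -0.67 and 1.32. MIR3667HG, a microRNA host, had 51 and 18 peaks with medians of 0.50 and 2.23. In each of the 5 hosts the median was higher in IP replicate 2.

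Counts of all reads in non-coding introns give a view that does not depend on peak calling. They made up 3.67% of counted reads in IP replicate 1 (95% Clopper-Pearson interval 3.65 to 3.69), 3.57% in IP replicate 2 (3.54 to 3.60) and 4.72% in the input (4.70 to 4.73), with a mean of 3.62% ± 0.07 (SD, n = 2) for the IP libraries. Intervals cover counting error only. Both IP libraries were below the single input, which has no replicate, and distal introns held 91.9%, 91.4% and 90.0% of these reads. The 72 identifiers that span more than 5 Mb held 39.7%, 37.7% and 21.7% of the non-coding intron reads, so a large part of the share rests on labels of uncertain meaning.

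Gene by gene, intron reads were mostly lower in the IP than in the input. With edgeR's quasi-likelihood test over 28825 gene regions of all kinds, 1299 non-coding intron rows could be tested, 769 were lower (59.2%, where 31.9% of all regions were lower) and 66 higher (5.08%, where 24.5% of all regions were higher), at an adjusted p under 0.05. The median log2 fold was -1.43, against 0.03 over all regions, -1.93 over introns of coding genes and -0.05 over non-coding exons. Of the 66 higher rows 32 had fewer than 10 input reads, so they passed the filter on low counts only through the IP libraries. These directions are relative to the scaling, because the test sets the middle of all regions near 0. Scaled on intron rows alone the split turned to 350 higher and 23 lower with a median of 0.48, where the median of all regions was 1.94, and scaled by library size alone it was 116 and 535 with a median of -0.79, where that of all regions was 0.67. A scaling moves all rows alike, so it leaves the distance between non-coding introns and all regions as it is. With no filter on low counts the median over 12382 identifiers was 1.003, above the 0.33 of all regions.

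Leaving out the widest labels changed these counts little, but the kind of label did make a difference. Without the identifiers that span more than 5 Mb, 65 of 1276 rows were higher and 767 lower, with a median of -1.46. The 23 such identifiers that were tested had a median of -0.02, with 1 higher and 2 lower. Of 1078 rows with Ensembl identifiers 41 were higher (3.80%) and 680 lower (63.1%), with a median of -1.55. Of 198 rows with other long non-coding RNA names 24 were higher (12.1%) and 87 lower (43.9%), with a median of -0.94. For 297 genes both the intron and the non-coding exon were tested, and the intron had the lower log2 fold in 257 (86.5%), with a median difference of -1.13 over the 297. Rows counted as the host of a peak in either list and the other rows had similar medians, -1.48 over 437 and -1.41 over 862. No test was made of that difference. The 862 can include other long non-coding RNA names that label a peak counted under an Ensembl identifier.

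**Figure D4:**
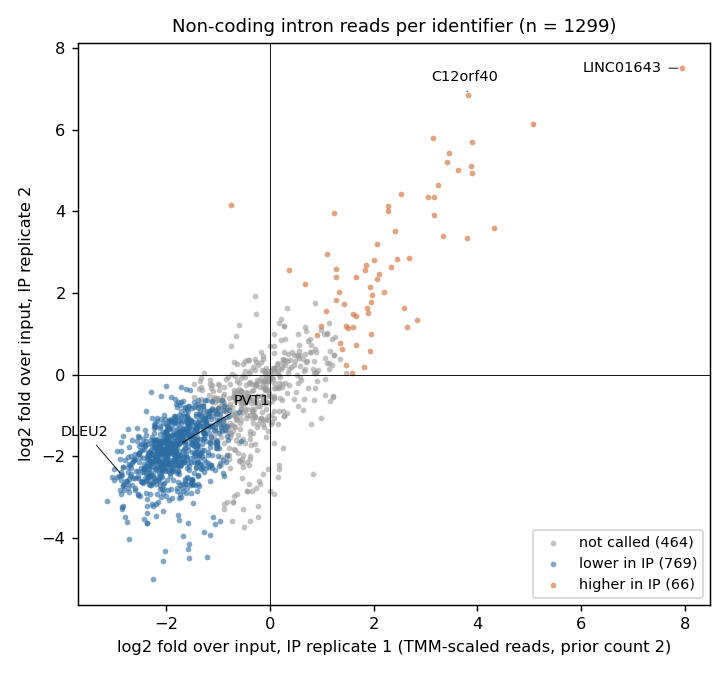
Each point is 1 of 1299 identifiers, with the log2 fold of its non-coding intron reads over input in IP replicate 1 (x axis) and IP replicate 2 (y axis), TMM-scaled with a prior count of 2. Orange marks the 66 called higher, blue the 769 called lower and grey the rest; LINC01643 and C12orf40 lie at the upper right, and PVT1 and DLEU2 among the blue points at the lower left.

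Most hosts of the narrow shared sites had few input reads over all their introns. LINC01643 had 1094 reads in IP replicate 1, 209 in IP replicate 2 and 2 in the input, a ratio of pooled IP to input reads, scaled by TMM library size, of 551 (95% counting interval 152 to 4555). Those reads were 0.642% and 0.470% of all non-coding intron reads of the 2 IP libraries. C12orf40 had 47, 104 and 1 reads, a ratio of 128 (22.6 to 5078), which rests mostly on IP replicate 2. With a prior count of 2, its log2 fold was 3.82 in the first IP and 6.84 in the second. In these 2 hosts both IP libraries stood far above the input, with the input too low for a precise ratio.

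The other leading hosts had lower counts, and 6 of them had more reads in each IP library than in the input. ENSG00000254404 had 49, 31 and 1 reads in the first IP, the second IP and the input, a ratio of 67.7 (11.8 to 2706). ENSG00000254573 had 46, 49 and 2 reads, a ratio of 40.2 (10.8 to 337). ENSG00000231918 had 65, 43 and 6 reads, a ratio of 15.2 (6.77 to 42.4). ENSG00000233635 had 36, 20 and 0 reads, at least 12.8-fold higher than a floor of 3 input reads in IP replicate 1 and at least 27.4-fold higher in IP replicate 2. ENSG00000234378 had 22, 16 and 0 reads, at least 7.81-fold and 21.9-fold higher than that floor. PID1 had 29, 13 and 1 reads, a ratio of 35.5 (6.04 to 1436). The exception was ENSG00000225315, host of the site on chromosome 1 with log2 folds of 5.65 and 6.81, which had 1, 0 and 2 intron reads. The reads of that site are thus not counted under this identifier, and MYOM3-AS1, its other host, has no intron row in the count tables. No such row exists for lnc-GNE-1 either, so its site could not be set beside intron counts.

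These counts are not separate evidence for the sites, since they can hold the same reads. Of the 18 Ensembl hosts of the 19 sites, 16 could be tested and 16 were called higher, but 14 of the 16 had fewer than 10 input reads and passed the filter on low counts only through the IP libraries. For 15 of the 18 hosts the site held every peak of that host in IP replicate 1. The other 2 of the 16, ANKRD30BL with 188, 81 and 61 reads and ENSG00000227242 with 118, 30 and 30, had log2 folds of 2.07 (SE 0.38, edgeR adjusted p = 3.92e-07) and 2.05 (SE 0.44, edgeR adjusted p = 1.18e-05). EPCAM-DT, with 27, 13 and 6 reads, is among the 14 that passed the filter only through the IP libraries, so no p is given. It was called by edgeR and not by DESeq2. DESeq2 gave no adjusted p for ENSG00000269535, ENSG00000266450 and AADACL2-AS1, which are also among the 14. AADACL2-AS1 was not called either by edgeR with no filter on low counts.

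Hosts with many peaks showed the opposite. CCDC26 had 2361 intron reads in IP replicate 1, 803 in IP replicate 2 and 14547 in the input, a log2 fold of -2.33 (SE 0.38, edgeR adjusted p = 8.09e-09). DLEU2 had 1512, 509 and 11591 reads, a log2 fold of -2.65 (SE 0.37, edgeR adjusted p = 2.03e-11). LRMDA had 1147, 437 and 7536 reads, a log2 fold of -2.33 (SE 0.36, edgeR adjusted p = 9.41e-10). PVT1 had 3000, 796 and 10699 reads, a log2 fold of -1.73 (SE 0.37, edgeR adjusted p = 1.57e-05), and MIR3667HG 1196, 397 and 3780, a log2 fold of -1.39 (SE 0.34, edgeR adjusted p = 0.000177). Scaled on intron rows alone none of the 5 was called: PVT1 and MIR3667HG turned to 0.17 and 0.50 (edgeR adjusted p = 0.718 and 0.223), and CCDC26, LRMDA and DLEU2 were at -0.44, -0.44 and -0.76 (edgeR adjusted p = 0.301, 0.279 and 0.0526). The 5 hosts with most peaks were thus among the intron rows with fewer IP reads than the input, relative to all regions.

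**Figure D5:**
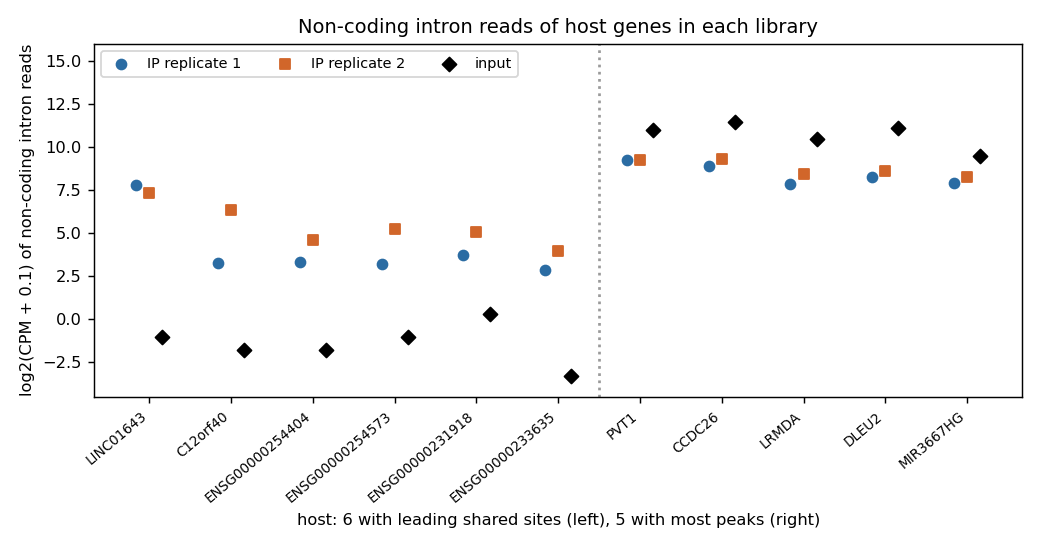
Non-coding intron reads of 11 hosts as log2(CPM + 0.1), CPM being TMM-scaled counts per 1e6 reads, in IP replicate 1 (blue), IP replicate 2 (orange) and the input (black). In the 6 hosts of leading shared sites at the left both IP points lie above the input, and in the 5 hosts with most peaks at the right both lie below it.

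Among called rows with reads above the median, the largest log2 folds were again in LINC01643 and ENSG00000231918, joined by 3 other names. These 3 are not counted as host of a peak here, though they may label peaks counted under an Ensembl identifier. lnc-DHX38-30 had 148, 81 and 2 reads in the first IP, the second IP and the input. lnc-FAM84B-7 had 200, 31 and 8 reads, a log2 fold of 4.44 (SE 0.53). lnc-MMP16-4 had 97, 58 and 9 reads, a log2 fold of 4.11 (SE 0.53). All 3, like LINC01643 and ENSG00000231918, had fewer than 10 input reads and passed the filter only through the IP libraries, so no p is given for them.

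The smallest log2 folds of such rows lay close together, between -3.18 and -3.03. ENSG00000269946 had 52, 14 and 509 reads, a log2 fold of -3.18 (SE 0.35, edgeR adjusted p = 2.52e-17). CLEC2D, which encodes a lectin-like ligand of the receptor CD161, had 23, 2 and 177 reads and a log2 fold of -3.13, and ENSG00000228782 had 23, 3 and 182 reads and -3.09. PMS2P3, a pseudogene of the mismatch repair gene PMS2, had 27, 5 and 225 reads and -3.08, and its reads may be shared with near-identical copies. VIM-AS1, antisense to the vimentin gene, had 31, 6 and 251 reads and -3.03, and its reads cannot be told apart from those of VIM unless counting used strand. With SEs of 0.35 to 0.43 the order of these 5 rows is within their error. All 5 were still lower when scaled on intron rows alone, at -1.27 to -1.12.

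Hosts of small nucleolar RNAs, which are cut from introns of their host transcripts, had few peaks. Of 30 listed hosts 2 had a peak, SNHG14 with 6 and 8 peaks and SNHG17 with 1 and 0, and none passed the threshold. Of 14 with enough reads 11 were lower (78.6%, where 59.2% of all non-coding intron rows were), 0 higher and 3 not called. Their median log2 fold was -2.01. Scaled on intron rows alone 1 was lower and 3 higher, with a median of -0.11. With that scaling 23 of all 1299 non-coding intron rows were lower and 350 higher, with a median of 0.48. SNHG31 had 45, 13 and 360 reads in the first IP, the second IP and the input, a log2 fold of -2.85 (SE 0.36, edgeR adjusted p = 1.85e-13). GAS5, whose introns hold several small nucleolar RNAs, had 214, 53 and 286 reads and was not called, with -0.35 (SE 0.32, edgeR adjusted p = 0.361).

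The listed hosts of microRNAs had more peaks, most of them in DLEU2. That list leaves out MIR3667HG and PVT1, which are described above. Of 16 listed genes 4 had a peak, DLEU2, MIR222HG, MIR4435-2HG and MIR99AHG, and none of these passed. The 12 rows tested came from 10 genes, with 8 lower (66.7%, near the 59.2% of all non-coding intron rows), 1 higher and 3 not called, and a median log2 fold of -1.99. Scaled on intron rows alone 2 were lower and 3 higher, with a median of -0.08. All 1299 non-coding intron rows then had 23 lower and 350 higher, with a median of 0.48. MIR155HG, the host of miR-155, had 72, 18 and 579 reads and a log2 fold of -2.93 (SE 0.33, edgeR adjusted p = 6.36e-16). The single higher row was a second identifier of MIR222HG with 50, 4 and 16 reads and 1.35 (SE 0.58, edgeR adjusted p = 0.0369), while its Ensembl row, with 276, 91 and 1968 reads, was at -2.58. The 2 identifiers of this gene thus had log2 folds of opposite sign. With a prior count of 2, the second identifier was at 1.58 in IP replicate 1 but 0.03 in IP replicate 2. Its call therefore rests mostly on IP replicate 1.

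Nuclear and architectural RNAs, such as regulators of the X-inactivation centre, had most of their peaks in PVT1. Of 14 listed genes 4 had a peak, FTX, JPX, NUTM2A-AS1 and PVT1. Of 8 rows tested, from 7 genes, 7 were lower (87.5%, where 59.2% of all non-coding intron rows were) and 0 higher. Their median log2 fold was -1.98. Scaled on intron rows alone 0 were lower and 1 higher, with a median of -0.07, against 0.48 over all non-coding intron rows. JPX had 331, 91 and 1769 reads in the first IP, the second IP and the input, a log2 fold of -2.29 (SE 0.32, edgeR adjusted p = 9.49e-12), and FTX 463, 113 and 2308 reads and -2.27 (SE 0.32, edgeR adjusted p = 3.48e-11). FIRRE, a nuclear RNA that binds chromatin, had 25, 3 and 10 reads and 1.13 (SE 0.75, edgeR adjusted p = 0.192), which is not called.

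RNAs linked to leukaemia and myeloid cells had the largest number of peaks because PVT1 and CCDC26 are among them. Of 21 listed genes 5 had a peak, PVT1, CCDC26, CYTOR, LINC-PINT and WT1-AS, and those past the threshold were all in PVT1. In the counts 9 of 10 rows, from 9 genes, were lower (90.0%, where 59.2% of all non-coding intron rows were), 0 higher and 1 not called. Their median log2 fold was -1.78. Scaled on intron rows alone none was called in either direction, with a median of 0.12, against 0.48 over all non-coding intron rows. CYTOR had 71, 10 and 325 reads and a log2 fold of -2.34 (SE 0.35, edgeR adjusted p = 3.35e-10). HOTAIRM1, a myeloid RNA of the HOXA cluster, had 11, 3 and 14 reads and was not called, with -0.23 (SE 0.79, edgeR adjusted p = 0.824). PVT1 is in this list and the previous one. The medians of the 4 lists lie below the -1.43 over all non-coding intron rows, and below the 0.48 when scaled on intron rows alone. No test was made of that.

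By name, no enriched peak lay in a gene named as a microRNA or small nucleolar RNA host. Of all peaks in non-coding introns 2.86% passed in IP replicate 1 and 10.9% in IP replicate 2. In the class counts below a peak with more than 1 host is counted once under each, so they add up to more than the number of peaks. No name class was tested against those shares. Peaks in genes named LINC, for intergenic non-coding RNA, passed the threshold in 8 of 84 cases in IP replicate 1 and 9 of 24 in IP replicate 2. Of these, 3 and 3 were at the single 29-base site of LINC01643, 3 of IP replicate 1 were in LINC01409 and 4 of IP replicate 2 in LINC00486. Antisense genes had 2 of 117 and 6 of 53, and divergent transcripts 1 of 14 and 1 of 5. Genes named as microRNA hosts had 0 of 80 and 0 of 23, and SNHG genes 0 of 7 and 0 of 8. The other hosts, most of them without a descriptive name, had 44 of 1685 and 56 of 564, and PVT1 is among them.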

How the data were processed

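Both IP libraries and 1 input library of DDX6 eCLIP were analysed. The reads went through cutadapt, STAR, UMI-tools and SAMtools on hg19, per the submitters' processing notes; versions, peak caller, counter, annotation and use of strand: not given in the sources used here. Raw counts of reads for each gene and region were deposited. Their deposited peak lists give a -log10 p (capped at 400 in the values) and a log2 fold of IP over input per peak. Peaks were not tested again; overlapping or touching peaks were merged per library, and sites were matched by at least 1 base on the same strand.

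Rows of a gene and region that reached 10 reads in 2 or 3 of the libraries were tested with edgeR 4.0.16 (R 4.3.3; glmQLFit, glmQLFTest) after TMM scaling, with Benjamini-Hochberg adjustment over 28825 rows. Totals and intergenic reads (4.05%, 3.78% and 2.63% of IP replicate 1, IP replicate 2 and input) were left out. The spread came from the IP libraries with 1 residual degree of freedom (common dispersion 0.036, prior degrees of freedom infinite), and the input was taken to have the same spread. On simulated data with 28825 rows the test recovered 9% of 2-fold and 66% of 4-fold changes, with 2 false calls (2.60%). Few simulated rows were changed, and IP and input had the same spread. In the data 24.5% of regions were called higher and 31.9% lower, so these rates need not carry over. DESeq2 1.42.0 was an alternative. Against 0 input reads, folds use a floor of 3 reads per library; with 1 to 3 input reads, the TMM-scaled ratio is given with its 95% counting interval.

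Of 29754 Ensembl identifiers 28576 matched the symbol table; RefSeq (GRCh38) gave gene classes only. No hg19 genome was used here, so no sequence is shown. The rule for named genes took the 10 shared sites with the largest mean log2 fold, the 5 hosts with most such sites (all tied at 1, so the leading sites' hosts), the 5 hosts with most peaks in IP replicate 1, the 5 largest and 5 smallest called log2 folds of 1 direction with reads above the median, and list genes with peaks past the threshold in both lists. The members, gene lists and rules were chosen with earlier results of these data known. Python 3.11.15, pandas 2.3.3, NumPy 2.4.6, SciPy 1.17.1 and matplotlib 3.10.9 were used.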

Additional observations from a re-analysis of the deposited data

How the results depend on the processing

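With a stricter threshold (-log10 p of at least 5, log2 fold of at least 4) 29 peaks of IP replicate 1 and 33 of IP replicate 2 passed, against 54 and 71, and with a log2 fold of at least 1 the counts were 90 and 81. The 75 enriched sites in either list became 41 to 53 when 1 IP library was left out. The 19 shared sites became 15 and 27 under those thresholds, and 16 without hosts that RefSeq lists as protein-coding (an alternative chosen after seeing the data). Sites shared with no threshold fell from 121 to 78 when 50% of both sites had to overlap. Higher intron rows, 66 in the report, numbered 116 scaled by library size, 350 scaled on intron rows, 182 with no filter beyond 1 read, 31 with at least 30 reads and 33 with DESeq2. Lower rows, 769 in the report, numbered 23 scaled on intron rows, 1213 with no filter, 366 with at least 30 reads and 361 with DESeq2. The median of -1.43 became -0.79 by library size, 0.48 on intron rows and 1.003 with no filter, where 12382 identifiers enter, and lay between -1.43 and -1.36 with 1 IP library left out. On intron rows PVT1 and MIR3667HG turned to 0.17 and 0.50, and CCDC26, LRMDA and DLEU2 were no longer called. Of gene reads alone, intergenic reads left out, non-coding introns took 3.82%, 3.71% and 4.85% of the first IP, the second IP and the input. Beyond what scaling and filters change by construction, the cause was not tested. No paired analysis was possible because there is 1 input library, whose label carries no replicate number. At 1244213 reads in IP replicate 2, most narrow sites rest on fewer than 50 reads there.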
